A study of Homo sapiens with 6 samples.

Results

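The collagen genes are the protein-coding genes whose symbol is COL, a number, A and a number, and the rule found 44 of them among the 78932 gene IDs of the deposited table. RNA sequencing measured them in 6 libraries whose labels name A549, a line grown from a human lung adenocarcinoma. Of these, 3 carry the title A549-OE-HIF1b and the genotype HIF1B overexpression (OE below), and 3 carry the title A549-WT and the genotype wild type (WT-labelled below). HIF-1β, the product of ARNT, is the partner with which the hypoxia-inducible factors bind DNA, and the comparison asks which transcripts differ when it is raised. Every sample's treatment field reads transfection, the wild-type ones included, and neither a vector, a promoter nor a clone is named. All cells were kept in RPMI medium with fetal bovine serum, glutamine and antibiotics under ordinary air with added carbon dioxide, and no oxygen level is given.

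Collagens are secreted or membrane proteins whose α chains wind round each other into a triple helix, and each chain has its own gene. Fibrillar collagens form the banded fibres of connective tissue, type IV collagens form the sheet of the basement membrane under an epithelium, and fibril-associated collagens coat the fibres. In the lung the basement membrane under the alveolar epithelium is made of type IV collagen with laminins, and collagen XVIII and collagen VII belong to basement membranes and their anchoring fibrils. Chains are hydroxylated and folded in the endoplasmic reticulum, and several of the hydroxylases are known targets of hypoxia-inducible factors.

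The 6 type IV genes lie in head-to-head pairs that are read outward from a shared stretch of DNA, and their windows are shown because the members of each pair moved in the same direction here. Each window is the RefSeq promoter sequence (GRCh38.p14, plus strand) of the pair's plus-strand gene, from 250 bases before its transcript start to 50 bases after it. Capitals mark CCAAT or its reverse complement ATTGG, and GGGCGG or its reverse complement CCGCCC.
COL4A2, chr13:110307034-110307333: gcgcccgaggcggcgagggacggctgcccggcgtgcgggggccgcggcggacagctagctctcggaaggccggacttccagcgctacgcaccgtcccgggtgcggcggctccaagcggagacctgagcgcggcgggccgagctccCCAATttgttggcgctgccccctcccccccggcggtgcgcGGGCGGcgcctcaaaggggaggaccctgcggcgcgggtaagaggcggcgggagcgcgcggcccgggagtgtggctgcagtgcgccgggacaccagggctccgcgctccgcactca
COL4A3, chr2:227164374-227164673: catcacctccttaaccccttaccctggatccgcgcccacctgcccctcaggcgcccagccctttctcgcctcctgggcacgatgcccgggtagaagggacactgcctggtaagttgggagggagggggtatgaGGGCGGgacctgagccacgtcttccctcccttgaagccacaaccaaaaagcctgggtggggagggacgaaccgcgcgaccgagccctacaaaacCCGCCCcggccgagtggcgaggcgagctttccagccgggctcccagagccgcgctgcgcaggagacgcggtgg
COL4A5, chrX:108439588-108439887: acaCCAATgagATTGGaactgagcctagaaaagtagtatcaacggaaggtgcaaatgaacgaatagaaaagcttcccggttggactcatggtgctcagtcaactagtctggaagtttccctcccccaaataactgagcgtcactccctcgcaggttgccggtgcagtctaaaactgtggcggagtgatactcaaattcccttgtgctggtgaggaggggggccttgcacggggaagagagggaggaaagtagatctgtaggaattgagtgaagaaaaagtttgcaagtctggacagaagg
The RefSeq starts of COL4A1 and COL4A2 were 126 bases apart, so the COL4A1 start lies inside the window printed for COL4A2. The starts of COL4A4 and COL4A3 were 418 bases apart and the nearest starts of COL4A6 and COL4A5 were 379 bases apart. Bases G and C made up 77.7% of the COL4A2 window, 67.7% of the COL4A3 window and 49.3% of the COL4A5 window, against a median of 58.7% over all 35116 windows of that length. GGGCGG on either strand occurred 1 time in the COL4A2 window, 2 times in the COL4A3 window and 0 times in the COL4A5 window, and 45.0% of all windows held it. CCAAT occurred 1, 0 and 2 times in the same order, and 34.6% of all windows held it. No CCAAT match overlapped a GGGCGG match. ACGTG or GCGTG, the core letters known for hypoxia-inducible factors, occurred 1, 1 and 0 times, and 48.4% of all windows held either. TATAAA was in none of the 3 windows. Of the 44 genes, 32 had a window in the RefSeq table.

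The libraries held 17192137 to 24454217 counts, and levels are given as CPM, counts per 1000000 of the composition-adjusted (TMM) total of the tested genes. ARNT averaged 139 ± 8.30 CPM in the OE libraries and 43.7 ± 5.67 CPM in the WT-labelled libraries, 3.18-fold higher as the labels have it. Other genes went against the label of a shared A549 background. MTAP, which A549 is known to have lost by deletion, was at 0.172 to 0.64 CPM in the OE libraries but at 72.4 to 81.9 CPM in the WT-labelled libraries. SMARCA4, a gene known to be mutated in A549, averaged 15.6 ± 1.83 CPM in the OE libraries and 201 ± 4.33 CPM in the WT-labelled ones (SD, n = 3 each). ALDH1A1, TBXT and GJA5 also separated the groups, with ALDH1A1 154-fold higher in the OE libraries. TBXT had 3 and GJA5 0 reads there, while TBXT averaged 2076 ± 294 and GJA5 428 ± 30.9 CPM in the WT-labelled libraries. Among epithelial markers, CDH1, which encodes E-cadherin, was at 217, 256 and 210.0 CPM in the OE libraries and at 1.58, 0.102 and 0.335 CPM in the WT-labelled ones, where replicate 1 held 26 of 36 counts. Of the 8 epithelial markers 6 were tested, 5 higher and KRT19 lower, where 38.3% of all tested genes were higher and 35.7% lower. EPCAM, with 1 read over the WT-labelled libraries, entered the test through the OE libraries alone. CDH1 also depended on the OE libraries to enter, and KRT19, with 34 counts over the OE libraries, depended on the WT-labelled ones. KRT19 averaged 0.497 ± 0.132 CPM in the OE libraries and 208 ± 17.1 CPM in the WT-labelled ones. The 8 markers summed to 7880.5 to 8649 CPM in the OE libraries and 2571 to 2794 CPM in the WT-labelled ones. Most of both sums was KRT8 and KRT18. Every difference below was measured between these same libraries, so raised HIF-1β and any other difference between the cells of the groups cannot be told apart. The table also holds 6 columns named for another cell line, which were not used, and whether a column name was exchanged was not tested. No comparison can be made without the WT-labelled libraries.

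Fibroblast and endothelial markers were low, while a smooth muscle and a leukocyte marker were detected. The summed level of 10 fibroblast markers was 3.41 to 4.42 CPM in the OE libraries and 1.13 to 1.38 CPM in the WT-labelled ones. FAP, POSTN and PRRX1, genes of activated or mesenchymal fibroblasts, had 0 reads in all 6 libraries, and DCN had 0 in the OE libraries. Of the 10 fibroblast markers 3 were tested, TWIST1 and TCF21 being higher and PDGFRB lower in the OE libraries. TWIST1 and TCF21 entered the test through the OE libraries alone and PDGFRB through the WT-labelled ones alone. The direction of each call followed from how the gene entered, and across all tested genes 38.3% were higher and 35.7% lower. The 6 endothelial markers summed to at most 0.129 CPM in the OE libraries and at most 0.243 CPM in the WT-labelled libraries. Smooth muscle and pericyte markers summed to 8.15 to 13.4 CPM and 14.8 to 16.3 CPM in the same order, of which ACTA2 held 9.62 ± 2.79 and 13.1 ± 0.871 CPM, and neither of the 2 tested genes was called. Leukocyte markers summed to 28.8 to 36.8 CPM and 15.3 to 16.1 CPM, nearly all of it CD68, a lysosomal gene of macrophages and other cells. CD68 was the only 1 of the 5 tested and was 2.10-fold higher in the OE libraries (adjusted p = 5.1e-06), and PTPRC and CD3E had 0 reads in all 6 libraries. The part of any of these cell types in the collagen differences was not tested.

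Of the 44 collagen genes, 27 had enough counts to be tested, and 26 of those differed between the groups, 12 higher and 14 lower in the OE libraries (edgeR quasi-likelihood test, adjusted p under 0.05 over 16091 genes). The only tested gene that did not pass was COL13A1. Across all tested genes 74% passed, 38.3% higher and 35.7% lower. By size, 19 of the 27 were called at 4-fold or more, 8 higher and 11 lower, where 20.9% of all tested genes were, 14.2% higher and 6.69% lower. For 25 of the 27 the groups had separate CPM ranges, against 77.3% of all tested genes. The median log2 fold change of the 27 was -1.18 and their median absolute log2 fold change 3.06, against 0.034 and 0.71 over all tested genes; both collagen medians stay the same with COL8A1, which had 0 reads in 1 group, at its bound. Of the 27, 7 had under 10 counts in every library of a group and entered the test wholly or mainly through the other group. COL6A3, with 6, 8 and 10 counts in the OE libraries, depended on the WT-labelled libraries to enter. COL11A2, with 6, 12 and 6 counts in the WT-labelled libraries, depended on the OE libraries. The shares above therefore describe the tested genes and not the 44. In bulk RNA, fewer cells of a type and less RNA per cell cannot be told apart.

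**Figure D1:**
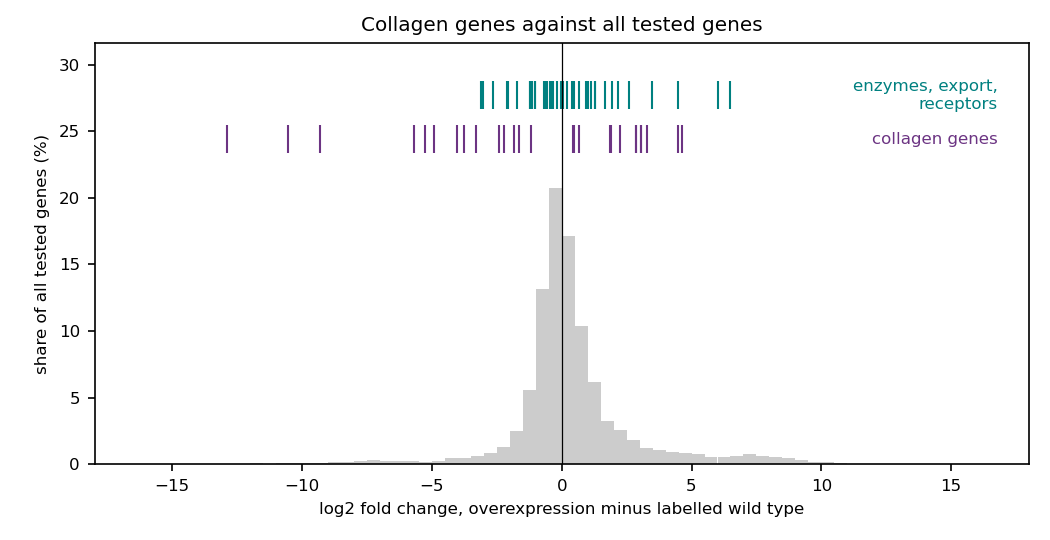
Grey bars show the share of all 16091 tested genes (vertical axis, %) by log2 fold change, overexpression minus labelled wild type (horizontal axis), and ticks above them mark the 27 tested collagen genes and the 39 tested enzyme, export, processing, cross-linking and receptor genes. Collagen ticks spread to both sides of 0, and the leftmost are genes with 0 to 2 reads in the OE libraries, whose fitted values depend on a small count added by the fit.

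**Figure D2:**
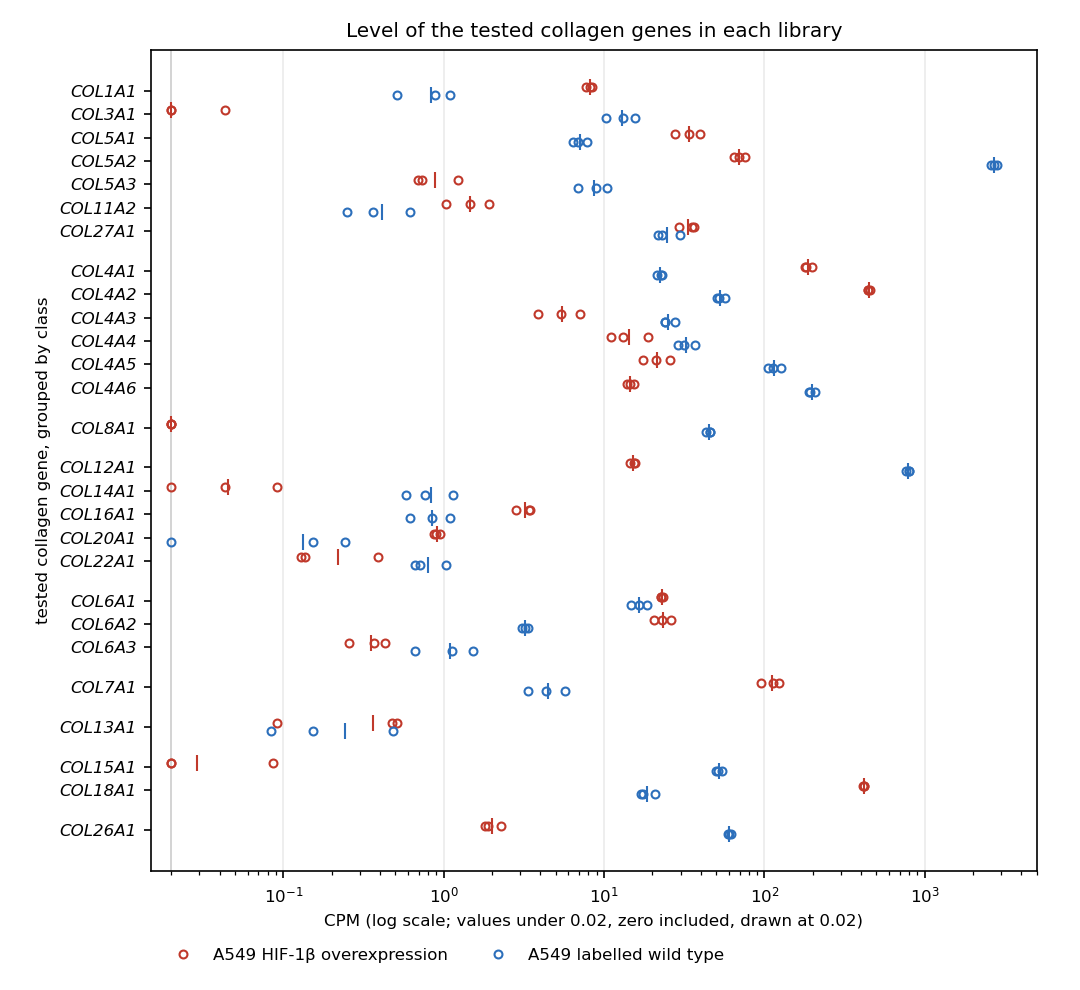
Each row is 1 tested collagen gene, grouped by class from fibrillar at the top to the others at the bottom; the horizontal axis is CPM on a log scale. Open circles are single libraries, vertical dashes are group means, red is HIF-1β overexpression and blue is labelled wild type (n = 3 each), and values under 0.02 CPM are drawn at 0.02. Red and blue circles mix in COL13A1, overlap slightly in COL27A1 and are apart in the other rows.

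The collagen repertoire as a whole differed in make-up and in amount. All collagen genes together held 1444, 1423 and 1436 CPM in the OE libraries, against 4056, 4369 and 4168 CPM in the WT-labelled libraries. The lower sum in the OE libraries rests on 2 genes, since the sum without COL5A2 and COL12A1 was 1349 ± 14.0 CPM in them and 706 ± 40.6 CPM in the WT-labelled libraries (SD, n = 3 each). Type IV genes took 48.0 ± 1.17% of collagen CPM in the OE libraries and 10.6 ± 0.414% in the WT-labelled ones. Multiplexins took 29.1 ± 0.0574% in the OE libraries, nearly all of it COL18A1, and 1.69 ± 0.0740% in the WT-labelled ones, where COL15A1 held 1.25 ± 0.101% and COL18A1 0.439 ± 0.0344%. The anchoring fibril gene COL7A1 took 7.73 ± 0.970% in the OE libraries and 0.107 ± 0.0318% in the WT-labelled ones. Fibrillar genes instead took 10.3 ± 0.630% in the OE libraries and 65.7 ± 0.356% in the WT-labelled libraries, and fibril-associated genes 1.42 ± 0.0438% and 18.9 ± 0.402%. COL4A2, COL18A1, COL4A1 and COL7A1 were the collagen genes with the highest CPM in the OE libraries. They made up 80.9 ± 1.37% of collagen CPM there and 2.35 ± 0.0829% in the WT-labelled ones. These shares leave out the basement membrane genes COL4A3, COL4A4, COL4A5, COL4A6 and COL15A1, whose CPM was higher in the WT-labelled libraries. COL5A2 and COL12A1 made up 5.93 ± 0.362% in the OE libraries and 83.2 ± 0.606% in the WT-labelled ones. Shares of CPM favour long transcripts, and a class share moves when any other class moves.

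**Figure D3:**
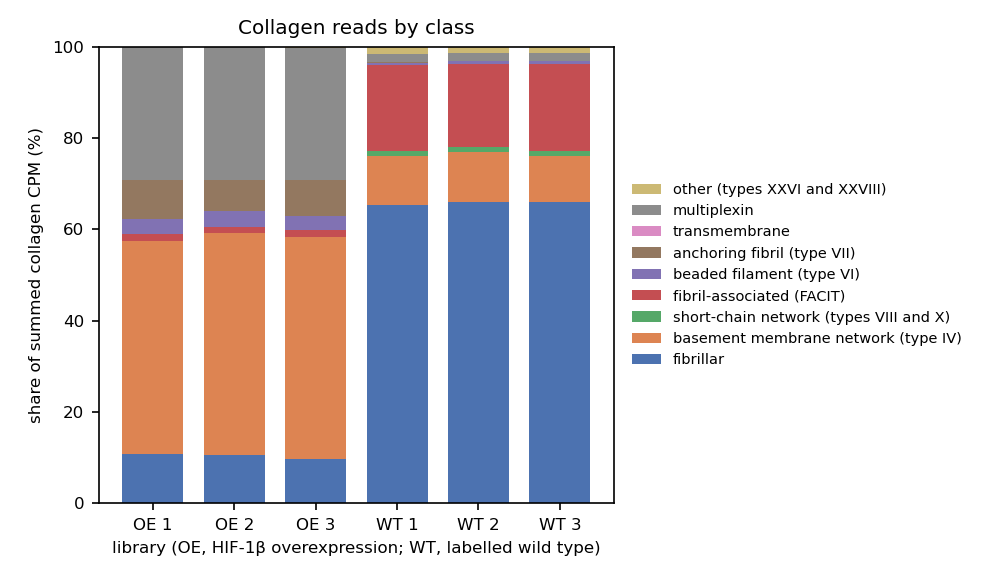
Stacked bars give the share of summed collagen CPM (vertical axis, %) that each collagen class took in each library (horizontal axis, OE for HIF-1β overexpression and WT for labelled wild type). Type IV and multiplexin genes fill most of the OE bars, and fibrillar and fibril-associated genes fill most of the WT bars, with the 3 libraries of a group alike.

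Per kilobase of the transcript with the longest coding sequence, the highest levels in the OE libraries were those of COL4A2 at 68.9 and COL18A1 at 63.3 CPM per kilobase, followed by COL4A1 at 28.1, COL7A1 at 12.0 and COL5A2 at 9.86. With the union of all annotated exons as length, COL18A1 stood first at 61.0 and COL4A2 second at 34.5 CPM per kilobase, so the order of that pair depends on the length used. In the WT-labelled libraries COL5A2 stood first at 382 CPM per kilobase, followed by COL12A1 at 67.2, COL4A6 at 29.1, COL26A1 at 19.9 and COL4A5 at 17.8. COL5A2 was the only gene among the first 5 of both groups.

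Type IV collagen split by gene pair, with COL4A1 and COL4A2 higher and the other 4 genes lower in the OE libraries. COL4A1 and COL4A2 encode the α1 and α2 chains found in nearly all basement membranes. COL4A1 (ENSG00000187498; chromosome 13, 110148963 to 110307233, minus strand; GENCODE 29, GRCh38) was at 179, 182 and 197 CPM in the OE libraries and at 22.8, 22.9 and 21.3 CPM in the WT-labelled ones. COL4A2 (ENSG00000134871; chromosome 13, 110305812 to 110513209, plus strand) was at 440.3, 445 and 457 CPM in the OE libraries and at 51.8, 57.1 and 50.6 CPM in the WT-labelled ones. The groups stood far apart in both genes, and the 2 rises were of almost the same size, 8.32-fold for COL4A1 (log2 fold change 3.06, SE 0.0755, adjusted p = 1.2e-10, edgeR) and 8.41-fold for COL4A2 (3.07, SE 0.0731, adjusted p = 9.4e-11). The annotated genes overlap by 1422 bases on opposite strands, and reads there cannot be told apart if counting ignored strand, and its strand setting is not given. The ratio of COL4A2 to COL4A1 per kilobase was 2.46 ± 0.0792 in the OE libraries and 2.43 ± 0.110 in the WT-labelled ones, with overlapping ranges; with the union of exons as length it was 1.40 ± 0.0451 and 1.38 ± 0.0627.

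COL4A3 and COL4A4 encode chains that, with the α5 chain, make the network of the glomerular and alveolar basement membranes, and both were lower in the OE libraries. COL4A3 (chromosome 2, 227164565 to 227314792, plus strand) was at 5.37, 7.09 and 3.88 CPM in the OE libraries and at 24.0, 27.7 and 24.0 CPM in the WT-labelled libraries. COL4A4 (chromosome 2, 227002711 to 227164453, minus strand) was at 13.2, 18.8 and 11.0 CPM in the OE libraries and at 29.1, 36.9 and 31.5 CPM in the WT-labelled ones. The groups did not overlap in either gene, although OE library 2 was the highest of its group in both. COL4A3 was 4.63-fold lower (log2 fold change -2.21, SE 0.184, adjusted p = 1.3e-06) and COL4A4 2.27-fold lower (-1.18, SE 0.173, adjusted p = 1.0e-04). The pair did not move by the same factor, since the ratio of COL4A3 to COL4A4 per kilobase was 0.468 ± 0.0344 in the OE libraries and 0.964 ± 0.0499 in the WT-labelled ones, with no overlap between the libraries.

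COL4A5 and COL4A6, the X-linked pair, encode the α5 and α6 chains and were the most abundant type IV transcripts in the WT-labelled libraries, per kilobase too. COL4A5 (chromosome X, 108439844 to 108697545, plus strand) was at 21.2, 25.9 and 17.4 CPM in the OE libraries and at 114, 127 and 105 CPM in the WT-labelled ones. COL4A6 (chromosome X, 108155607 to 108439497, minus strand) was at 15.4, 14.0 and 14.5 CPM in the OE libraries and at 192, 208 and 191 CPM in the WT-labelled libraries. The groups were well apart in both genes, although COL4A5 varied from 17.4 to 25.9 CPM within the OE libraries, library 2 being the highest. COL4A5 was 5.37-fold lower (log2 fold change -2.42, SE 0.132, adjusted p = 4.3e-08) and COL4A6 13.4-fold lower (-3.75, SE 0.0780, adjusted p = 4.0e-11). The ratio of COL4A5 to COL4A6 per kilobase was 1.54 ± 0.352 in the OE libraries and 0.610 ± 0.0321 in the WT-labelled ones. In sum, type IV CPM was 674, 692 and 701 in the OE libraries and 433, 479 and 423 in the WT-labelled ones. The α1 and α2 genes held 633 ± 18.6 CPM of it in the OE libraries and 75.5 ± 4.15 CPM in the WT-labelled libraries.

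**Figure D4:**
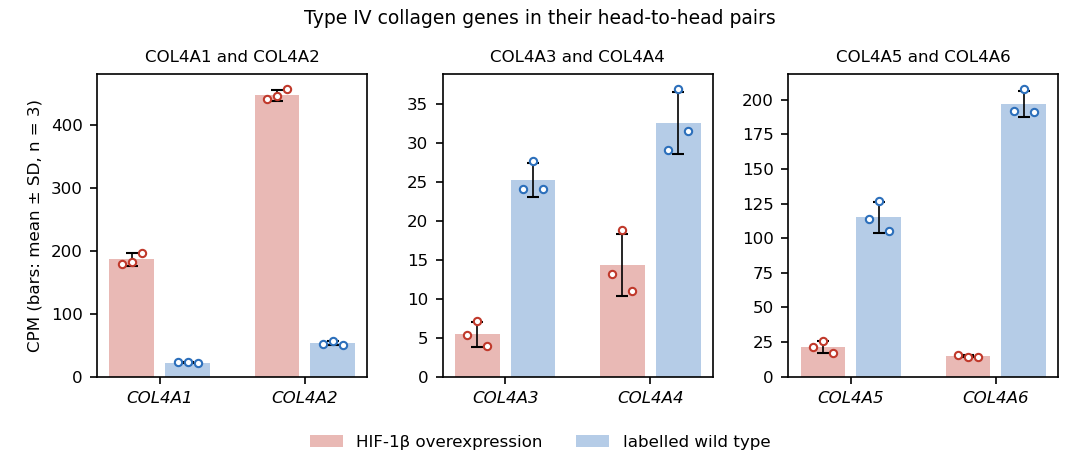
Bars give the mean CPM (vertical axis, own scale in each panel) of the 6 type IV genes, with error bars of 1 SD and a circle per library (n = 3); each panel is 1 head-to-head pair, red is HIF-1β overexpression and blue is labelled wild type. In the COL4A1 and COL4A2 panel the red bars are the tall ones, and in the other panels the blue bars are.

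Fibrillar collagens moved in both directions, with 4 of the 7 tested genes higher and 3 lower in the OE libraries. Over all tested genes 38.3% were higher and 35.7% lower. COL3A1 entered the test through the WT-labelled libraries alone, and COL11A2 depended on the OE libraries to enter. COL5A2, which encodes the α2 chain of the fibril-initiating collagen V, was the most abundant collagen transcript of the WT-labelled libraries. COL5A2 (ENSG00000204262; chromosome 2, 189031896 to 189225312, minus strand) was at 69.0, 75.6 and 65.0 CPM in the OE libraries and at 2599, 2816 and 2698 CPM in the WT-labelled ones. That is a 38.7-fold lower level in the OE libraries (log2 fold change -5.28, SE 0.0862, adjusted p = 1.2e-11, edgeR), with the groups wide apart. Its partner chain gene COL5A1 moved the other way, at 39.7, 27.6 and 33.9 CPM in the OE libraries and 6.86, 7.88 and 6.41 CPM in the WT-labelled ones, 4.79-fold higher (log2 fold change 2.26, SE 0.149, adjusted p = 2.0e-07). Per kilobase, COL5A2 stood to COL5A1 as 2.55 ± 0.638 in the OE libraries and as 461 ± 38.7 in the WT-labelled ones. COL5A3, the third chain of collagen V, was at 0.687, 1.23 and 0.733 CPM in the OE libraries and at 8.86, 10.4 and 6.87 CPM in the WT-labelled ones, 9.86-fold lower (log2 fold change -3.30, SE 0.283, adjusted p = 1.6e-06).

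COL3A1, the gene of the collagen III found beside collagen I in elastic tissues, had 1 read over the 3 OE libraries, in replicate 3; without that library the fitted log2 fold change was -11.10 in place of -9.32. In the WT-labelled libraries COL3A1 was at 10.3, 15.6 and 13.2 CPM, which made it 900.2-fold lower in the OE libraries (95% exact counting interval 161 to 35601; adjusted p = 1.8e-08). COL3A1 and COL5A2 are neighbours on chromosome 2, placed tail to tail with 19.1 kilobases between them, and both were lower in the OE libraries. COL1A1, which encodes the α1 chain of collagen I, was instead higher there, at 8.42, 8.23 and 7.76 CPM against 1.09, 0.512 and 0.880 CPM in the WT-labelled libraries. It rose 9.83-fold (log2 fold change 3.30, SE 0.262, adjusted p = 8.7e-07), and the ranges were far apart. COL1A2, the partner chain of COL1A1, had 0 reads in all 6 libraries, which allows up to 0.0439 CPM in OE and 0.0501 CPM in WT-labelled cells (3 counts over a group, counting error only).

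COL27A1 and COL11A2 were also higher in the OE libraries. COL27A1, a cartilage fibrillar collagen, was at 36.2, 35.4 and 29.3 CPM in the OE libraries and at 23.1, 29.6 and 21.6 CPM in the WT-labelled ones, 1.36-fold higher (log2 fold change 0.44, SE 0.130, adjusted p = 9.7e-03). Its groups overlapped by a small margin, and the call was lost without WT replicate 3 (log2 fold change 0.33, adjusted p = 0.051). COL11A2, a chain of the cartilage collagen XI, averaged 1.47 ± 0.443 CPM in the OE libraries and 0.410 ± 0.186 CPM in the WT-labelled ones, 3.59-fold higher (adjusted p = 2.9e-03). COL2A1, COL11A1 and COL24A1 were too low to be tested, at 1, 14 and 41 counts over the 6 libraries.

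The fibril-associated class was led by COL12A1, which encodes collagen XII on the surface of collagen I fibrils. COL12A1 (ENSG00000111799; chromosome 6, 75084326 to 75206051, minus strand) was at 15.3, 14.5 and 15.7 CPM in the OE libraries and at 763, 803 and 799 CPM in the WT-labelled ones. The libraries of each group were nearly level, and the difference was 51.9-fold lower (log2 fold change -5.70, SE 0.0787, adjusted p = 7.8e-12, edgeR). Every other gene of the class was under 5 CPM in both groups. COL16A1 averaged 3.23 ± 0.340 CPM in the OE libraries and 0.851 ± 0.238 CPM in the WT-labelled ones, 3.79-fold higher (adjusted p = 1.4e-04). COL20A1 was at 0.907 ± 0.0403 and 0.132 ± 0.123 CPM in the same order, 6.86-fold higher (log2 fold change 2.86, adjusted p = 2.4e-03). The log2 fold change of COL20A1 was 3.57 without WT replicate 1 and 2.16 without WT replicate 3. COL14A1 and COL22A1 were lower, with 3 and 15 counts over the OE libraries and 48 and 47 counts over the WT-labelled ones (adjusted p = 3.3e-04 and 7.8e-03). The log2 fold change of COL14A1 was -4.05, and -4.92 without OE replicate 2, and that of COL22A1 was -1.83, and -2.53 without OE replicate 1. COL9A1 and COL19A1, which lie 5.08 kilobases apart on chromosome 6, had 0 reads in all 6 libraries, and COL9A2, COL9A3 and COL21A1 had 33, 40 and 9 counts in all and were not tested.

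Outside the type IV network, 2 genes of the basement membrane zone, COL18A1 and COL7A1, were among the most raised collagens of the OE libraries. COL18A1, whose product is the heparan sulfate proteoglycan collagen XVIII and the source of endostatin, lies on chromosome 21 (ENSG00000182871; 45405137 to 45513720, plus strand). Its level was 419.5, 415 and 416 CPM in the OE libraries and 17.0, 20.9 and 17.5 CPM in the WT-labelled ones. COL18A1 was thus 22.6-fold higher (log2 fold change 4.49, SE 0.0908, adjusted p = 3.3e-11). COL7A1, the gene of the anchoring fibrils that tie an epithelial basement membrane to the stroma (ENSG00000114270; chromosome 3, 48564073 to 48595267, minus strand), was at 124, 95.3 and 113 CPM in the OE libraries and at 5.70, 3.38 and 4.36 CPM in the WT-labelled libraries. COL7A1 was 24.8-fold higher (log2 fold change 4.64, SE 0.162, adjusted p = 1.3e-09). The 95% intervals of the log2 fold change were 4.29 to 5.00 for COL7A1 and 4.29 to 4.70 for COL18A1, so these rises are not ranked. COL17A1, the hemidesmosome collagen of the same zone, had only 14 counts over the OE libraries and 1 over the WT-labelled ones, and was not tested.

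COL15A1, the other multiplexin and also a gene of basement membrane zones, went the opposite way to COL18A1. It had 2 reads over the OE libraries, both in replicate 3 (fitted log2 fold change -10.54, and -13.10 without that library), and was at 54.7, 50.1 and 51.7 CPM in the WT-labelled libraries, 1778-fold lower in the OE libraries (95% exact counting interval 492 to 14685; adjusted p = 1.3e-10). COL8A1, a short-chain network collagen of vessel walls and of the membrane under the corneal endothelium, had 0 reads in the OE libraries and was at 46.0, 45.6 and 43.5 CPM in the WT-labelled ones. COL8A1 was therefore at least 1022-fold lower in the OE libraries (bound set by 3 counts over the group; adjusted p = 7.1e-10). COL26A1, a collagen-like matrix gene, was at 1.80, 2.29 and 1.90 CPM in the OE libraries and at 61.5, 60.6 and 59.1 CPM in the WT-labelled ones, 30.3-fold lower (log2 fold change -4.92, SE 0.111, adjusted p = 6.6e-11). All 3 genes were at or under 2.29 CPM in every OE library and steady between the WT-labelled libraries. Of their classes, COL8A2 had 1 and COL28A1 11 counts over the 6 libraries, and COL10A1 had none.

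Collagen VI, which forms beaded filaments round cells from α1, α2 and α3 chains, was uneven. COL6A2 was at 23.1, 26.2 and 20.6 CPM in the OE libraries and at 3.34, 3.07 and 3.23 CPM in the WT-labelled ones, 7.25-fold higher (log2 fold change 2.86, SE 0.141, adjusted p = 2.0e-08). COL6A1, which lies 93.0 kilobases from COL6A2 on chromosome 21, was at 23.2, 22.8 and 22.6 CPM in the OE libraries and at 16.5, 18.5 and 14.7 CPM in the WT-labelled ones. That difference was small but without overlap, 1.38-fold higher (log2 fold change 0.47, SE 0.105, adjusted p = 2.1e-03). Per kilobase, COL6A1 stood to COL6A2 as 0.809 ± 0.0919 in the OE libraries and as 4.23 ± 0.624 in the WT-labelled ones. With the union of exons as length these ratios were 1.03 ± 0.117 and 5.38 ± 0.794. Whether COL6A1 was below COL6A2 in the OE libraries thus depends on the length used. COL6A3, the gene of the third chain of the usual trimer, was low throughout, at 0.352 ± 0.0877 CPM in the OE libraries and 1.10 ± 0.427 CPM in the WT-labelled ones, 3.14-fold lower (adjusted p = 6.6e-03). COL6A5 and COL6A6 had 0 reads in all 6 libraries. The transmembrane class was near silent, with COL23A1 and COL25A1 at 0 reads and COL13A1 at 0.360 ± 0.234 CPM in the OE libraries and 0.241 ± 0.215 CPM in the WT-labelled ones. For COL13A1 the 95% interval of the log2 fold change ran from -0.99 to 2.35 (adjusted p = 0.43).

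Several members lie near each other, and all pairs of tested members within 1 Mb of each other shared their direction. Besides the 3 type IV pairs and the pair of COL3A1 and COL5A2, these were COL18A1, COL6A1 and COL6A2 on chromosome 21, all higher in the OE libraries. COL18A1 ends 468 kilobases before COL6A1 on the same strand. In 2 further pairs, COL19A1 with COL9A1 and COL6A5 with COL6A6, neither member had a read. COL9A3, the neighbour of COL20A1 on chromosome 20, was not tested. These positions are a description, and no test of clustering was made. How often other neighbouring genes share a direction was not computed.

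Of the 44 genes, 17 were not tested, and 8 of them had 0 reads in all 6 libraries: COL1A2, COL6A5, COL6A6, COL9A1, COL10A1, COL19A1, COL23A1 and COL25A1. The other 9 had 1 to 41 counts summed over the 6 libraries and at most 15 in any library. A gene with no counts in a group could still have been present at up to 0.0439 CPM in the OE libraries or 0.0501 CPM in the WT-labelled ones.

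Genes that modify, fold and export collagen chains were compared beside the collagens, from lists of 49 genes chosen for their function. Of the 39 tested, 16 were higher, 19 lower and 4 not called in the OE libraries, against the 74% of all tested genes that passed in either direction. The 14 tested hydroxylation and glycosylation genes had 5 higher, 7 lower and 2 not called, with a median log2 fold change of -0.38. PLOD2, the lysyl hydroxylase of the telopeptides, averaged 197 ± 11.6 CPM in the OE libraries and 43.6 ± 1.84 CPM in the WT-labelled ones, 4.51-fold higher (adjusted p = 1.1e-09). PLOD3, the lysyl hydroxylase that also glucosylates collagen, was at 47.5 ± 0.531 and 199 ± 19.6 CPM in the same order, 4.19-fold lower (adjusted p = 3.5e-09). P3H2, a prolyl 3-hydroxylase that acts on type IV collagen, was at 37.9 ± 9.64 and 325 ± 28.7 CPM, 8.58-fold lower (adjusted p = 2.1e-08). Of the catalytic subunits of prolyl 4-hydroxylase, P4HA3 was at 15.4 ± 2.53 and 2.54 ± 0.105 CPM, 6.06-fold higher (adjusted p = 2.9e-07). P4HA2 was 2.01-fold higher (adjusted p = 1.2e-05) and P4HA1 2.02-fold lower (adjusted p = 2.0e-05); these last 2 were named after their values were seen. CRTAP, the partner protein of prolyl 3-hydroxylase 1, was at 350.5 ± 23.7 and 394 ± 15.3 CPM and did not pass (95% interval of the log2 fold change -0.32 to -0.01, adjusted p = 0.051). It passed without a filter on low counts (adjusted p = 0.038), with a replicate block (0.019), without OE replicate 2 (0.017) and without WT replicate 3 (0.029).

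**Figure D5:**
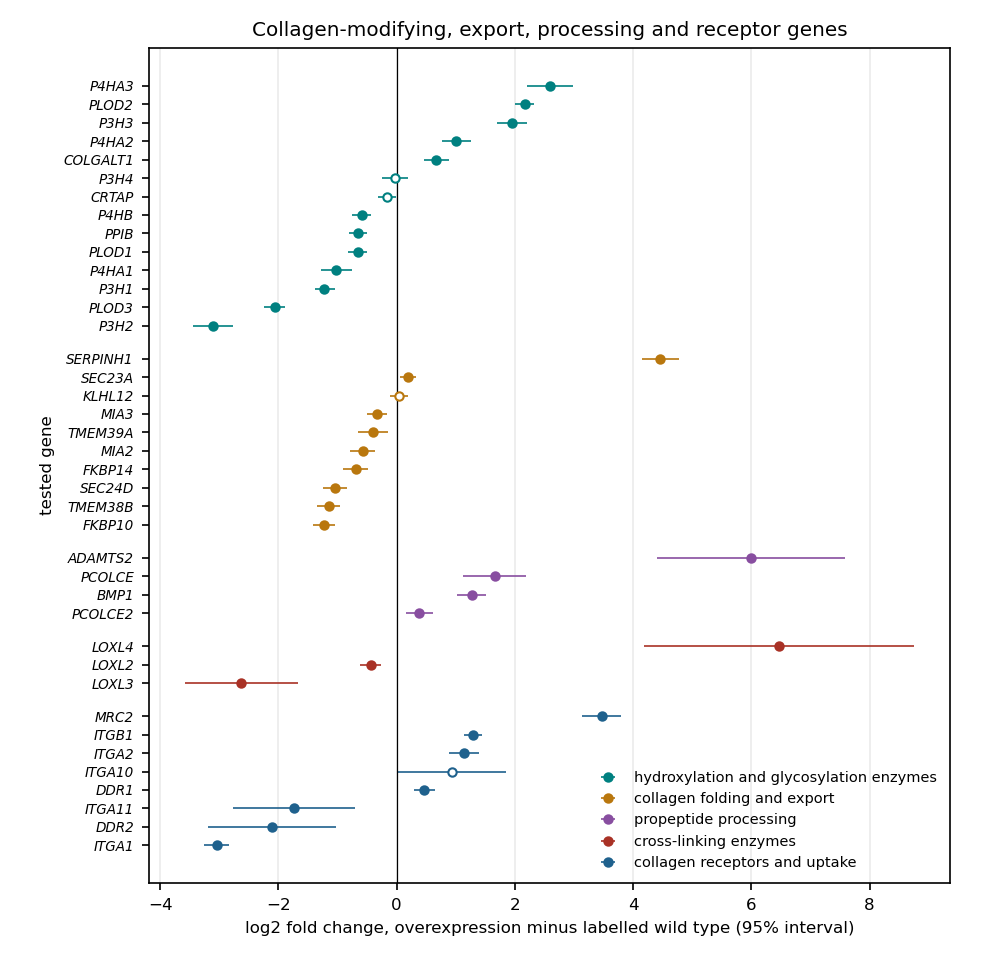
Points give the log2 fold change, overexpression minus labelled wild type (horizontal axis), of the 39 tested genes that modify, export, process, cross-link or bind collagen, with 95% intervals; filled points passed the test and open points did not, and colours are the 5 lists. SERPINH1, MRC2 and the scarce ADAMTS2 and LOXL4 lie farthest to the right, and P3H2 and ITGA1 farthest to the left.

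SERPINH1, which encodes HSP47, the chaperone specific to collagen, was the member that moved most among folding and export genes. SERPINH1 was at 75.7, 81.6 and 64.2 CPM in the OE libraries and at 3.94, 2.87 and 3.31 CPM in the WT-labelled ones, 21.9-fold higher (log2 fold change 4.46, SE 0.138, adjusted p = 5.1e-10). Of the 10 tested genes in that list, 2 were higher, SERPINH1 included, 7 lower and 1 not called, with a median log2 fold change of -0.48. Over all tested genes 38.3% were higher and 35.7% lower. FKBP10, a prolyl isomerase of collagen folding, was at 142 ± 12.4 CPM in the OE libraries and 333 ± 21.2 CPM in the WT-labelled ones, 2.35-fold lower (adjusted p = 2.0e-07). TMEM38B, an ion channel of the endoplasmic reticulum needed for normal collagen I, was 2.22-fold lower (adjusted p = 7.3e-07). SEC24D, a coat protein of the vesicles that carry procollagen, was 2.06-fold lower (adjusted p = 2.4e-06).

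Of the 8 propeptide-processing genes 4 were tested, and all 4 were higher in the OE libraries, where 38.3% of all tested genes were. ADAMTS2 entered the test through the OE libraries alone. The untested genes were ADAMTS3, with 4 counts over the OE libraries and 33 over the WT-labelled ones, ADAMTS14, TLL1 and TLL2. BMP1, the C-propeptide proteinase, was at 45.7 ± 4.45 CPM there and 18.9 ± 2.35 CPM in the WT-labelled ones, 2.41-fold higher (adjusted p = 2.0e-06). Its enhancers PCOLCE and PCOLCE2 were 3.16-fold (adjusted p = 8.5e-05) and 1.31-fold higher (adjusted p = 5.2e-03). ADAMTS2, the N-propeptide proteinase, had 98 counts over the OE libraries and 1 over the WT-labelled ones, 85.9-fold higher (95% exact counting interval 15.1 to 3427; adjusted p = 2.1e-05). The fitted log2 fold change of ADAMTS2 was 7.97 without WT replicate 2, which held that read, and 5.41 without WT replicate 3. Among the lysyl oxidases that cross-link collagen, LOX and LOXL1 had 10 and 1 counts in all and were not tested. LOXL2 was the abundant member, at 141 ± 10.1 CPM in the OE libraries and 192 ± 13.9 CPM in the WT-labelled ones, 1.36-fold lower (adjusted p = 4.2e-04). LOXL3 was 6.29-fold lower (adjusted p = 2.3e-04), and LOXL4, at 0.513 ± 0.0383 CPM against 0 reads, at least 10.2-fold higher (adjusted p = 3.4e-04). Like ADAMTS2, LOXL4 entered the test through the OE libraries alone. LOXL3, with 9, 3 and 11 counts in the OE libraries, depended on the WT-labelled libraries to enter.

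Of the 8 tested collagen receptors, 4 were higher, 3 lower and 1 not called. Over all tested genes 38.3% were higher and 35.7% lower. MRC2, the endocytic receptor that takes up collagen, was at 164, 222 and 157 CPM in the OE libraries and at 17.4, 17.7 and 14.0 CPM in the WT-labelled ones, 11.1-fold higher (log2 fold change 3.47, SE 0.149, adjusted p = 6.7e-09). ITGA1, the integrin chain that with β1 binds type IV collagen by preference, was at 8.76, 9.10 and 10.2 CPM in the OE libraries and at 75.5, 82.7 and 73.0 CPM in the WT-labelled ones, 8.24-fold lower (log2 fold change -3.04, SE 0.0938, adjusted p = 5.0e-10). The β1 chain gene ITGB1, at 1837 ± 118 CPM in the OE libraries and 751 ± 15.3 CPM in the WT-labelled ones, was 2.45-fold higher (adjusted p = 3.3e-08). ITGA2, whose chain also pairs with β1 to bind collagen, was also higher (log2 fold change 1.14, adjusted p = 4.9e-06); both were named after their values were seen. ITGA11 and DDR2, receptors for fibrillar collagens, averaged under 2 CPM in each group and were lower in the OE libraries, by 3.40-fold (adjusted p = 5.7e-03) and 4.35-fold (adjusted p = 2.6e-03). Both depended on the WT-labelled libraries to enter the test. In the OE libraries ITGA11 had 7, 9 and 21 counts and DDR2 11, 8 and 3. The log2 fold change of ITGA11 was -1.74, and -2.34 without OE replicate 3.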

How the data were processed

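Total RNA was read in 6 libraries labelled A549, 3 per group. Per the labels' protocols, the kit was stranded, for total RNA, and depleted ribosomal RNA, whereas the molecule field names polyA RNA. The table the authors deposited gives estimated counts for each gene, and its name credits salmon; per the submitters' processing notes, bcl2fastq 2.20 and GRCh38 were used. For aligner settings, annotation release and strand setting, nothing is given in the sources used here. Another 6 value columns, whose names match no sample and point to another cell line, were not used here. In a library 8.18% to 9.51% of the estimated counts the authors deposited were not whole (beyond 1e-06), and all were rounded.

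Symbols matched 61481 of 78932 IDs (77.9%). Members are protein-coding in RefSeq and in GENCODE 29, which gave positions and lengths. Members, classes and lists were chosen with earlier results of these data known. edgeR 4.0.16 (R 4.3.3) ran filterByExpr at a minimum of 10 counts, TMM and the quasi-likelihood F test over 16091 genes, with Benjamini-Hochberg adjustment and a threshold of 0.05. SE is the absolute log2 fold change over the square root of F. Folds are ratios of mean CPM, except that a group with 1 to 3 counts gives a ratio of summed counts with a 95% exact interval, and a group with 0 gives a bound at 3 counts over the group. Intervals and floors cover counting error only. The steps were tested on simulated data in which far fewer genes differed than here, so that test does not cover differences this broad. Per-library values are given for members of at least 5 CPM in a group; each pathway list names up to 4 called genes by size and those not called above 50 CPM.

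No label ties the 3 libraries of a group to 3 cultures; the p-values then reflect only how these libraries vary, possibly by technique alone. No pair repeated each other (chi-square per degree of freedom 6.03 to 15.8 within groups). The batch field equals the replicate number, so the labels pair the libraries, and their deviations from group means correlated by 0.023 to 0.12 between equal numbers and by -0.098 to 0.024 between others (0.12 to 0.25 and -0.18 to -0.024 over genes above the median level). Alternatives were DESeq2 1.42.0, its size factors in edgeR, library totals, other filters, a replicate block and leaving out each library.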

Additional observations from a re-analysis of the deposited data

How the results depend on the processing

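The number of collagen genes called higher, 12, was 11 to 13 and the number called lower, 14, was 11 to 15 over the 12 alternatives. The count over all genes, 11908, was 10986 to 13591. Leaving out single libraries gave 11 to 13 higher and 14 to 15 lower. With a replicate block, 12 collagen genes were higher, 14 lower and 11960 genes called in all, and the block changed no collagen call; among the pathway genes it changed that of CRTAP (adjusted p = 0.019). The DESeq2 test gave 12 and 14. The filter of 1 CPM in 3 libraries gave 11 and 11 because it tested fewer genes, COL6A3, COL13A1, COL14A1, COL20A1 and COL22A1 not being among them. Of the 26 called collagen genes, 25 kept call and direction in every alternative that tested them; COL27A1 lost its call without WT replicate 3 (adjusted p = 0.051). None of the 317 collagen values reversed. SEC23A, named after its values were seen, lost its call without a filter (adjusted p = 0.078) and without WT replicate 1 (0.095) or 3 (0.058), and ITGA10 gained one with library totals (0.042); the cause was not tested. Depth limits statements on the 17 untested genes to their counts.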

Other observations

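Beside the protein-coding genes, 11 rows of the table carry a collagen gene's symbol as antisense, divergent or pseudogene names, and only 1 of them was tested. COL6A4P1, the human remnant of a collagen VI chain gene, is listed under a pair of IDs. Under ENSG00000291281 it was at 0.429, 0.366 and 0.388 CPM in the OE libraries and at 0.910, 1.07 and 0.880 CPM in the WT-labelled ones, and it passed the test (log2 fold change -1.26, adjusted p = 9.8e-03). Under ENSG00000230524 it had 2 and 10 counts over the groups in the same order, and how reads were shared between the IDs was not tested. COL18A1-AS1 and COL4A2-AS1, antisense to genes with above 400 CPM in the OE libraries, had 1 count each over the 6 libraries, and COL18A1-AS2, COL4A2-AS2 and COL5A1-AS1 had none.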
